A study of Mus musculus with 14 samples.

Results

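The imprinted growth genes described here are H19, Igf2, Igf2r, Meg3, Dlk1, Peg3, Cdkn1c, Plagl1, Grb10 and Mest. They were picked by gene symbol, and all 10 were among the 16124 genes of the deposited table. The set was chosen by its imprinting and by a value already seen in these data, the wide range of H19 between mice, so that range is described here and not tested. RNA was sequenced from mammary epithelial cells (MECs) of 7 littermate pairs of female mice aged 3.5 months, with 1 library per mouse. In each pair, numbered 1 and 3 to 8, 1 mouse was wild type (WT) and the other was Usp22 OE/OE. The OE/OE mice carry 2 copies of a FLAG- and MYC-tagged mouse Usp22 cDNA at the ROSA26 locus, driven by the CAGGS promoter. Its LoxP-flanked STOP cassette was removed with Zp3-Cre, so the transgene is expressed throughout the body and not only in MECs. Usp22 encodes the deubiquitylase of the SAGA chromatin complex. The cells came from organoid preparations of the number 2, 3 and 4 glands, with the lymph nodes of gland 4 taken out, and were not sorted by a surface marker.

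Imprinted genes are transcribed mainly from 1 parental copy, and many of them set growth before and after birth. In general, paternally expressed members such as Igf2, Dlk1, Peg3, Plagl1 and Mest favor growth, whereas maternally expressed members such as H19, Igf2r, Cdkn1c, Grb10 and Meg3 restrain it. H19 and Igf2 share enhancers and an imprinting control region, and Dlk1 and Meg3 are the paired coding and noncoding transcripts of another such domain. Most of these genes are high in the fetus and fall after birth. The reads do not tell the parental copies apart, so all values below are sums over both.

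H19 is a 2.46 kb spliced noncoding RNA at chr7:142575529-142578143 on the minus strand (GRCm38). Igf2 lies 72.6 kb away on the same strand, at chr7:142650766-142666816, and Cdkn1c and Peg3 lie on the same chromosome at chr7:143458339-143461050 and chr7:6703892-6730431. Dlk1 (chr12:109452823-109463336) and Meg3 (chr12:109541001-109571726) are on the plus strand, 77.7 kb apart. Igf2r is at chr17:12682406-12769664, Plagl1 at chr10:13060504-13131694, Grb10 at chr11:11930508-12038683 and Mest at chr6:30723547-30748465. Of the 5723 exon bases of Igf2, 3694 are shared with other genes, nearly all of them with Gm49394, which lies on the same strand and has no row in the table, and the rest with the antisense gene Igf2os. Mest shares 912 exon bases with Copg2 on the opposite strand, Meg3 shares 1499 with Gm26906 on the opposite strand and with small RNA genes on its own, and Cdkn1c shares 625 with the antisense gene Gm44732. Whether the libraries were stranded, and whether strand was used in counting, is not given in the sources used here, so the values of these genes are uncertain in the shared stretches.

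Of these genes, 4 carry microRNAs in their introns or exons, which poly(A)-selected libraries do not measure as mature molecules. The sequences are shown because a change in the host transcript is often read as a change in its microRNA, and no such reading can be made here. They are RefSeq entries on GRCm38.p6, 5′ to 3′, and the capitals mark the seed, bases 2 to 8. The first pair lies in an exon of H19, at chr7:142577112-142577133 and chr7:142577078-142577099, and both arms are made from the H19 transcript itself. Both arms of miR-483 lie in an intron of Igf2, miR-770 and miR-1906 in exons of Meg3 and miR-335 in an intron of Mest. No 2 of the 9 sequences share a seed.
miR-675-5p: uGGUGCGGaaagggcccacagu
miR-675-3p: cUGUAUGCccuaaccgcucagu
miR-483-5p: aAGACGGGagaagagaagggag
miR-483-3p: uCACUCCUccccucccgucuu
miR-770-5p: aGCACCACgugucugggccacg
miR-770-3p: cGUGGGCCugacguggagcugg
miR-1906: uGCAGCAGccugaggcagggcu
miR-335-5p: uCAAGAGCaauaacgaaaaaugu
miR-335-3p: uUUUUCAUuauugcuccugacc

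RefSeq promoter windows, 250 bases before to 50 after a transcript start, were available for 8 of the 10 genes (15 windows, GRCm38.p6). The windows were searched for the cAMP response element TGACGTCA and for GGGGCCCC, a form of the GC-rich core that PLAGL1 is known to bind. Both motifs read the same on either strand. Meg3 and Peg3 were the only genes of the set with a match. Only the windows that held a match are shown. The 250 bases before the start are given, chr12:109540746-109540995 on the plus strand for Meg3 and chr7:6730420-6730669 on the minus strand for Peg3, with the motifs in capitals.
Meg3: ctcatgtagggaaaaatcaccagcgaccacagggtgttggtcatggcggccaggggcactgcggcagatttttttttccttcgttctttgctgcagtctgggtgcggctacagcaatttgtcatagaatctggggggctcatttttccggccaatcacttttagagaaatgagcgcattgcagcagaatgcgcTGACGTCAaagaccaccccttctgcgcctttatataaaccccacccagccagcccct
Peg3: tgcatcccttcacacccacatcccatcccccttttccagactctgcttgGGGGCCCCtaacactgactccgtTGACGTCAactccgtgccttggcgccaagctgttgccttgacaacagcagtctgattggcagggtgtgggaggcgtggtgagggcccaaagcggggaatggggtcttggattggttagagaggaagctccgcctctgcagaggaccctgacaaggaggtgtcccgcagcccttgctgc
TGACGTCA starts 57 bases before the Meg3 start and 178 bases before the Peg3 start, and GGGGCCCC lies just upstream of it in Peg3. Of 32851 promoter windows of the genome, 1.79% hold the first motif and 1.08% the second. A match is only a match of letters, and no binding was measured.

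The libraries held 20125106 to 41835978 fragments, and Usp22 separated them as labelled (3500 to 5380 normalized counts against 74948 to 144288 with the transgene). All 10 pan-epithelial marker genes were above 0 in every mouse, and their normalized counts summed to 327648 to 561904 in WT and 346168 to 619385 in OE/OE. Stromal and vascular markers were present too, and the part of those cells in each value was not tested. The OE/OE library of pair 4 stood apart. It was the lowest of all 14 for 11 of 12 endothelial and 7 of 8 pericyte genes, and the highest for 15 of 16 dividing-cell genes. Over all genes of the table it was the lowest library for 25.3% and the highest for 27.04%. The genotype comparison, the H19 range and the counts of correlations are therefore given with and without that mouse or its pair. As these are bulk samples, fewer cells of a type and less RNA per cell cannot be told apart.

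H19 ranged 147-fold between the 14 mice, from 51.8 to 7613 normalized counts (fragment counts divided by a size factor per library). In WT mice of pairs 1, 3, 4, 5, 6, 7 and 8 it was 276, 129, 99.0, 141, 351, 134 and 143 normalized counts. In their OE/OE littermates it was 245, 51.8, 7613, 110, 263, 89.8 and 165, in the same order. One mouse, the OE/OE mouse of pair 4, made this range: it stood 21.7-fold above the next mouse, the WT mouse of pair 6, and 53.8-fold above the median of the other 13. No other of the 16124 genes had a larger gap between that library and the next one on the log2 scale. The value rested on 7938 fragments, against 55 to 412 in the other libraries. Without this mouse the range was 6.78-fold, and the ranges of WT and OE/OE mice overlapped. By the SD of log2 values H19 ranked 107 of 16124 genes over 14 mice (1.68) and 1599 over the other 13 (0.76).

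**Figure D1:**
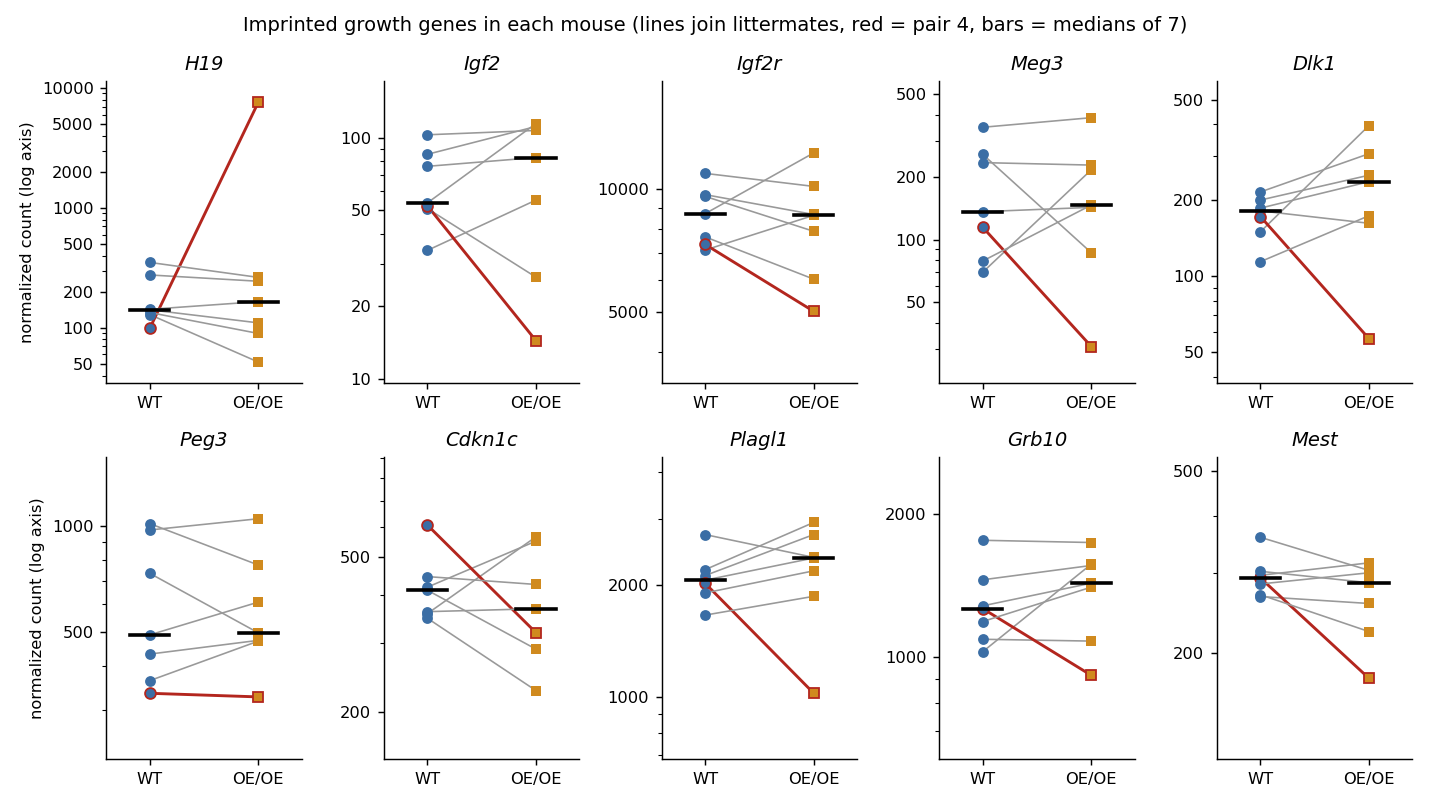
Normalized counts (log axis) of the 10 imprinted growth genes in 7 WT mice (circles) and 7 Usp22 OE/OE mice (squares), with lines joining littermates, pair 4 in red and bars at the medians. The OE/OE mouse of pair 4 is the highest of 14 for H19 (7613) and the lowest of 14 for 8 of the other 9 genes.

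In that same mouse the other imprinted growth genes were low. It held the lowest value of the 14 mice for 8 of the 10 genes, Igf2, Igf2r, Meg3, Dlk1, Peg3, Plagl1, Grb10 and Mest, against 25.3% of all genes. Cdkn1c ranked 3 of 14 from below there, and H19 alone was at the top. The size of the drop against the median of the other 13 mice differed between genes: 5.28-fold for Igf2, 4.79-fold for Meg3, 3.29-fold for Dlk1 and 2.13-fold for Plagl1, but 1.73-fold or less for Igf2r, Mest, Grb10, Peg3 and Cdkn1c. Its WT littermate had the highest Cdkn1c of all mice (605) and the lowest H19 (99.0) and Peg3 (335) of the WT mice.

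Igf2, the fetal growth factor that signals through the IGF1 and insulin receptors, was a low transcript. It ranged from 34.1 to 103 normalized counts in WT mice (median 53.6) and from 14.4 to 114 in OE/OE mice (median 82.7), resting on 15 to 127 fragments. The 2 groups overlapped, and the lowest OE/OE values were those of pairs 4 (14.4) and 3 (26.4). Igf2r, the receptor that takes IGF2 to the lysosome for breakdown, was the most abundant of the 10. Its values were 7103 to 10947 in WT (median 8719) and 5028 to 12285 in OE/OE (median 8640), so the OE/OE mice spread on both sides of the WT mice.

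Dlk1, a membrane protein of the Notch ligand family that keeps preadipocytes and other progenitors undifferentiated, spread over 114 to 216 normalized counts in WT (median 181). In OE/OE mice it ran from 56.6 in pair 4 to 395 in pair 1 (median 237), and the next lowest OE/OE value was 162. Meg3, the noncoding RNA of the same domain, was 69.9 to 347 in WT (median 137) and 30.7 to 386 in OE/OE (median 147). Both extremes of each gene lay in OE/OE mice. For Meg3 the highest mouse of each genotype belonged to pair 5 (347 and 386).

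Peg3, a large zinc finger protein, showed 335 to 1016 normalized counts in WT (median 491) and 327 to 1048 in OE/OE (median 497). Plagl1, a zinc finger transcription factor that regulates other imprinted genes, showed 1656 to 2723 in WT (median 2055) and 1023 to 2934 in OE/OE (median 2356). Without pair 4 its lowest OE/OE value was 1860. Cdkn1c, the cyclin-dependent kinase inhibitor p57, showed 348 to 605 in WT (median 411) and 227 to 564 in OE/OE (median 368), and its lowest mouse was the OE/OE mouse of pair 5. The ranges of the 2 genotypes overlapped for each of these genes.

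Grb10, an adaptor that dampens insulin and IGF1 receptor signaling, was 1027 to 1764 normalized counts in WT (median 1266) and 916 to 1745 in OE/OE (median 1433). Mest, a hydrolase-fold protein induced in growing fat, had the smallest SD of log2 values of the 10, at 266 to 359 in WT (median 292) and 176 to 316 in OE/OE (median 286). Its ratio of highest to lowest mouse was 2.03, and 1.61 without the OE/OE mouse of pair 4. The corresponding ratios of Grb10 were 1.93 and 1.72.

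Divided by exon length, taken over the merged exons of all annotated transcripts of a gene, WT levels could be ordered between genes. Igf2r stood at 937 ± 155 normalized counts per kb (mean ± SD, n = 7), and no WT value of the next gene reached its lowest. Plagl1 (268 ± 41.8), Cdkn1c (207 ± 43.6) and Grb10 (143 ± 27.4) followed, with overlap of Plagl1 with Cdkn1c and of Cdkn1c with Grb10. Mest (74.9 ± 7.87), H19 (73.9 ± 38.1) and Peg3 (46.6 ± 21.5) formed an overlapping run with lower means than Grb10 (the highest H19 value reached into the Grb10 range), and the ranges of Peg3 and Dlk1 (30.8 ± 5.94) also met. Igf2 (11.3 ± 4.16) and Meg3 (9.79 ± 5.77) were the lowest per kb and overlapped each other. This order depends on which transcripts are annotated and on how fragments in shared exons were counted. The whole count was also divided by the unshared exon bases only, a length chosen after the values were seen. That level holds only if no fragment of a shared stretch was counted, and is otherwise too high. By it Igf2 came to 32.0 ± 11.7 per kb, overlapping Dlk1 (30.8 ± 5.94), and Cdkn1c (298 ± 62.9) passed Plagl1 (269 ± 42.1). The highest Mest value (118) then reached above the lowest of Grb10 (113). The receptor for IGF2 was thus far more abundant per kb than its ligand in every WT mouse.

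How much of the spread lay between litters differed between genes. For Peg3, 91.8% of the sum of squares of log2 values lay between litters, the highest share of the 10, and 0.00776% between genotypes. For H19 it was 43.4% and for Cdkn1c 46.4%, while the median over all genes was 73.9%. Of the 10 genes, 9 lay below that median. Between genotypes, Mest had the largest share (13.2%), and the others had 3.95% or less. By the SD of log2 values over 14 mice, Meg3 (0.99, rank 858 of 16124) and Igf2 (0.86, rank 1477) came next after H19, and 5 of the 10 were below the median gene (0.41), from Mest (0.24) and Grb10 (0.29) through Igf2r (0.34) and Plagl1 (0.37) to Cdkn1c (0.39).

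The design compared Usp22 OE/OE with WT littermates. In the fit over all genes (limma on log2(normalized count + 1), littermate pair as a block), none of the 10 genes passed an unadjusted p of 0.05, the threshold the study used. By that rule 3.81% of all genes were called, 1.95% higher and 1.85% lower in OE/OE. With edgeR, DESeq2 and the study's per-gene paired test the count was also 0 of 10. The log2 fold changes ran from -0.17 for Mest (SE 0.12, limma adjusted p = 1.00) to 0.52 for H19 (SE 0.78, adjusted p = 1.00), with a median of -0.03 against -0.00 for all genes. Mest was lower in 5 of 7 litters and H19 in 5 of 7 as well, although the mean of H19 was positive. Igf2 (-0.06, SE 0.32), Igf2r (-0.09, SE 0.12), Meg3 (-0.11, SE 0.39), Dlk1 (0.20, SE 0.29), Peg3 (-0.01, SE 0.12), Cdkn1c (-0.15, SE 0.19), Plagl1 (0.02, SE 0.16) and Grb10 (0.09, SE 0.11) lay within 1 SE of 0. Exact sign flips of the 7 litter ratios, which can give no p below 0.0156, gave two-sided p from 0.156 for Mest to 0.969 for H19.

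**Figure D2:**
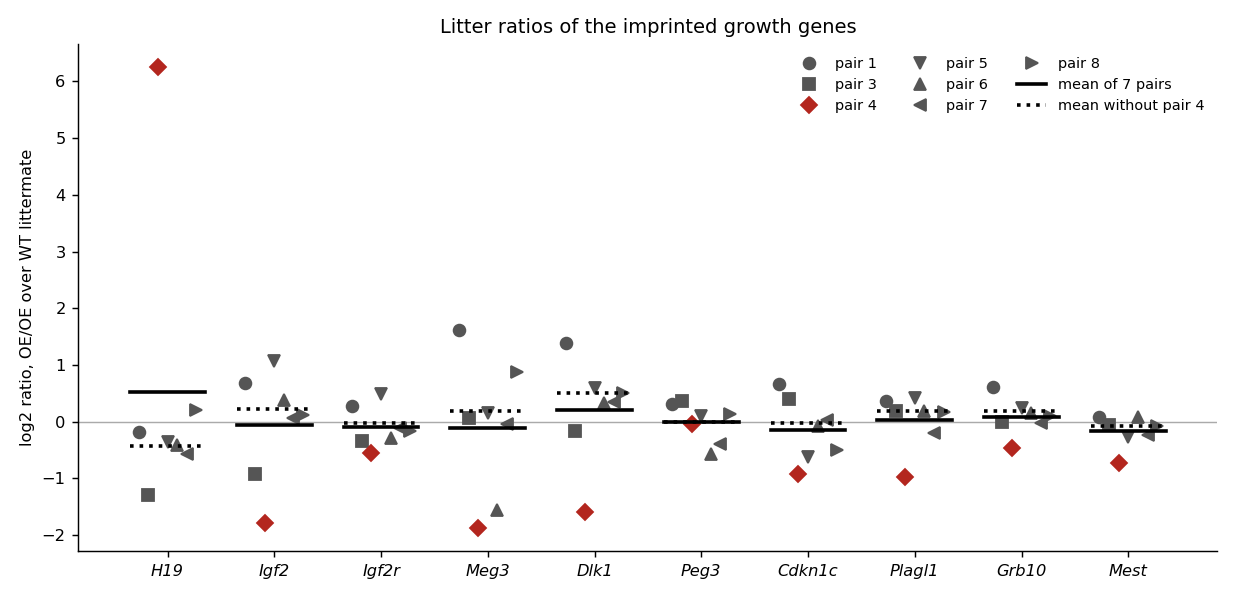
Log2 ratios of OE/OE over WT littermate for the 10 genes, 1 symbol per pair, with pair 4 in red, the mean of 7 pairs as a solid line and the mean of 6 pairs without pair 4 as a dotted line. Pair 4 is the highest ratio for H19 (6.25) and the lowest for 8 of the other 9 genes, Peg3 being the exception.

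Leaving out pair 4 moved 2 of the 10 genes past the threshold, in opposite directions. The H19 litter ratios of pairs 1, 3, 4, 5, 6, 7 and 8 were -0.17, -1.30, 6.25, -0.36, -0.41, -0.57 and 0.21 on the log2 scale. Over the 6 pairs without pair 4, H19 was lower in OE/OE in 5 of 6, with a log2 fold change of -0.43 (limma p = 0.0370, adjusted p = 0.562, exact sign flips p = 0.0938), opposite in sign to the 7-pair value. The Dlk1 litter ratios were 1.39, -0.16, -1.59, 0.60, 0.33, 0.35 and 0.50, in the same order. Without pair 4 Dlk1 was higher in 5 of 6 pairs, at 0.50 (limma p = 0.0190, adjusted p = 0.537, exact sign flips p = 0.0625). Both stand beside a larger share of calls over the whole table, of which 8.47% was called without pair 4, 4.49% higher and 3.98% lower. In pair 4 the dividing-cell markers differed by 4.94 on the log2 scale between the littermates, and the part of this difference in the H19 value was not tested. Plagl1 (0.19, adjusted p = 0.590) and Grb10 (0.18, adjusted p = 0.611) were not called in the 6-pair limma fit.

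Whether the genes moved together was asked over the 7 litter ratios, for all 45 pairs of genes, with exact permutation of the pairings. With all litters, H19 ran against each of the 9 others (median r = -0.69), and 35 of the 36 relations among the others were positive (median r = 0.65). Over all genes of the table, the share with a positive r ran from 46.5% for Grb10 to 51.4% for H19. Of the 45, 14 had p of 0.05 or less and none passed adjustment over the 45. A high count is common in these litters: between a gene of the set and any other gene of the table the share at p of 0.05 or less, in either direction, was 17.95% (median over the 10 genes, from 1.33% for Peg3 to 29.3% for Dlk1). All 14 were positive, and the share for positive relations alone ran from 0.73% for Peg3 to 15.1% for Dlk1. Without pair 4, H19 was positive with 7 of 9 (median r = 0.34), 30 of the other 36 were positive (median r = 0.34) and 2 had p of 0.05 or less, with 6.69% in either direction as the median share over the table. The share of all genes with a positive r then ran from 47.2% for Igf2 to 49.7% for Cdkn1c. In the litter ratios the negative sign of H19 thus rested on 1 litter. Among the 7 OE/OE mice H19 was also negative with all 9 (median r = -0.63), and among the 7 WT mice with 5 of 9 (median r = -0.04). Without the OE/OE mice of pairs 3 and 4, H19 stayed negative with Igf2, Igf2r, Meg3, Peg3, Plagl1 and Grb10. It was positive there with Dlk1, Cdkn1c and Mest. The 14 relations had r of 0.76 to 0.96 (median 0.84) over 7 litters and 0.28 to 0.93 (median 0.63) over the 6, so all stayed positive while 2 kept p of 0.05 or less. Leaving out pair 1, 7 or 8 in place of pair 4 left 7, 8 and 9 relations at that threshold.

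**Figure D3:**
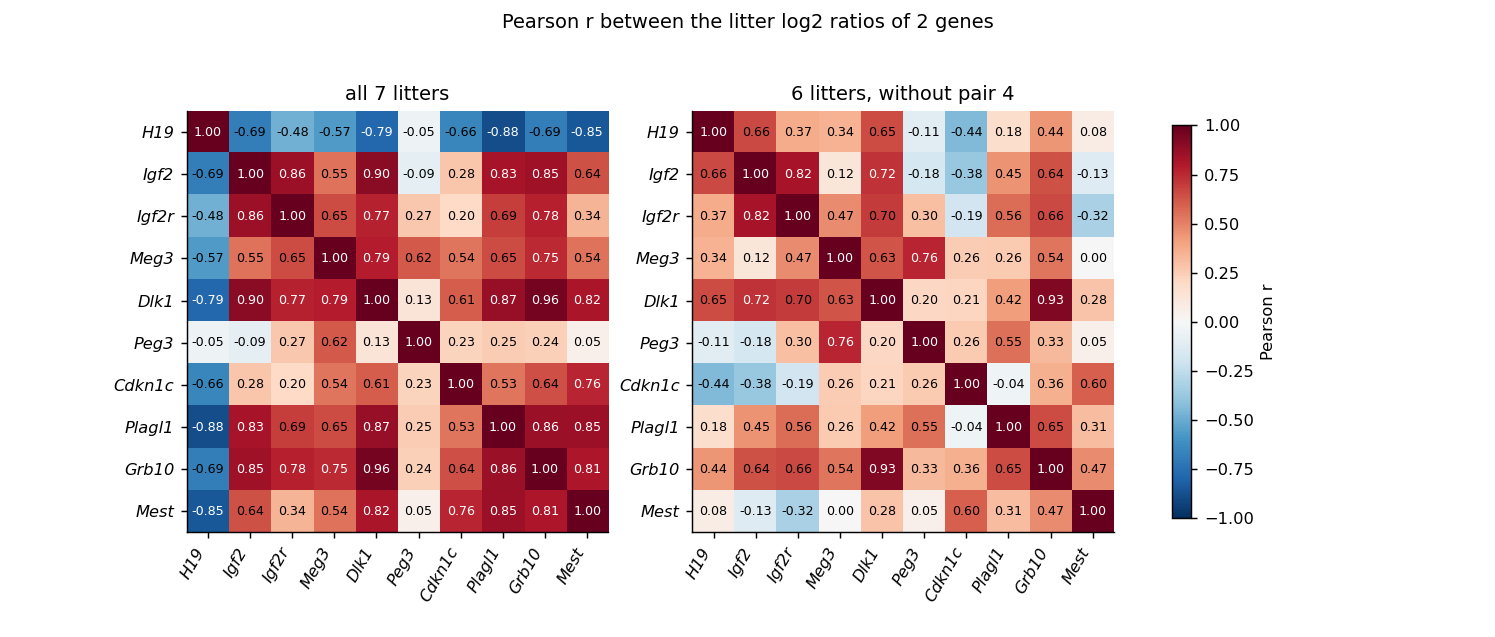
Pearson r between the litter log2 ratios of each pair of the 10 genes, over 7 litters (left) and over the 6 litters without pair 4 (right), red for positive and blue for negative r. The blue H19 row on the left (9 of 9 negative) is mostly positive on the right (7 of 9).

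H19 and Igf2, the neighbors on chromosome 7, had r = -0.69 over the litter ratios (exact permutation p = 0.130, adjusted p = 0.236) and rho = 0.00 (p = 1.00). Leaving out pairs 3 and 4, farthest from the H19 median, gave r = -0.13, and leaving out only pair 4 gave r = 0.66 (exact p = 0.143). Within WT mice r was -0.04 (exact permutation p = 0.940, adjusted p = 0.978). No relation of these neighbors was detectable with 7 litters.

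Igf2 and its receptor Igf2r kept a positive relation in each view. Over litter ratios r was 0.86 (exact permutation p = 0.0151, adjusted p = 0.144) and rho 0.86 (p = 0.0238), with r = 0.88 without pairs 3 and 4 and r = 0.82 (exact p = 0.0333) without pair 4. In the 7 WT mice r was 0.94 (exact permutation p = 0.00476, adjusted p = 0.134), rho was 0.93 (p = 0.00675), and r was 0.86 without the mice of pairs 6 and 7. In the OE/OE mice r was 0.90 (exact permutation p = 0.00655, adjusted p = 0.0625), but 0.41 without those of pairs 3 and 4. None of these passed adjustment over the 45 relations.

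Dlk1 and Grb10 gave the highest r of litter ratios, 0.96 (exact permutation p = 0.00317, adjusted p = 0.125), with rho = 0.82 (p = 0.0341), r = 0.70 without pairs 1 and 4 and r = 0.93 without pair 4 (exact p = 0.0167). Dlk1 and its domain partner Meg3 had r = 0.79 over litter ratios (exact permutation p = 0.0288, adjusted p = 0.144), rho = 0.86 (p = 0.0238), and r = 0.84 without pairs 4 and 6. The same 2 genes had r = -0.35 over WT mice (exact permutation p = 0.460, adjusted p = 0.788) and 0.19 over litter means (p = 0.677, adjusted p = 0.708), and 0.66 over OE/OE mice (p = 0.118, adjusted p = 0.212). Without pair 4 the r of the litter ratios was 0.63 (exact p = 0.163). For Meg3 and Peg3 the litter means, which carry the differences between litters shared by both genotypes, gave r = 0.94 (exact permutation p = 0.00159, adjusted p = 0.0714), rho = 0.89 (p = 0.0123) and r = 0.86 without pairs 4 and 5. Their litter ratios had r = 0.62 (exact permutation p = 0.134, adjusted p = 0.236), rho = 0.68 (p = 0.110), r = 0.46 without pairs 4 and 6 and r = 0.76 without pair 4 (exact p = 0.0639).

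H19 values are described here beside those of dividing-cell genes. The list holds 16 genes of the cell cycle, among them Mki67, Top2a and Ccnb1, all 16 of them in the table and none at 0 in any mouse, and it was set beside H19 after the values had been seen. Its mean log2 value in WT mice of pairs 1, 3, 4, 5, 6, 7 and 8 was 8.66, 7.72, 5.01, 7.37, 9.10, 5.98 and 6.39. In OE/OE mice it was 7.45, 5.57, 9.95, 6.16, 8.68, 6.19 and 6.76. Pair 4 therefore held both ends of the scale, the WT mouse lowest and the OE/OE mouse highest. Summed over the list, the normalized counts were 1431 to 11172 in WT and 1322 to 19415 in OE/OE, with Mki67 at 66.3 in the WT mouse and 2627 in the OE/OE mouse of pair 4.

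Among the 7 OE/OE mice, H19 and the dividing-cell list had r = 0.92 (exact permutation p = 0.000397, adjusted p = 0.0258 over 130 relations) and rho = 0.96 (p = 0.00278). Leaving out the mice of pairs 4 and 6 gave r = 0.98, and leaving out only pair 4 gave r = 0.91 (exact p = 0.0125, adjusted p = 0.258). The adjusted p of rho was 0.110, so the call was lost by rho and without pair 4. Among the 7 WT mice r was 0.88 (exact permutation p = 0.00655, adjusted p = 0.172), rho was 0.75 (p = 0.0663) and r was 0.72 without pairs 4 and 6. For the litter differences r was 0.96 (exact permutation p = 0.0101, adjusted p = 0.0958), but rho was 0.68 (p = 0.110). Without pair 4 the r of the litter differences was 0.68 (exact p = 0.129), and without pairs 3 and 4 it was 0.20. The size of that relation thus depended on those litters. The mice with the highest list values were the OE/OE mouse of pair 4 (mean log2 9.95, sum 19415, H19 7613) and the WT mouse of pair 6 (9.10, 11172 and 351). The spread of H19 between mice chose the set, and the list was added after the values were seen. These p-values therefore describe the relation and do not test it. The part of dividing cells in the H19 values was not tested.

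**Figure D4:**
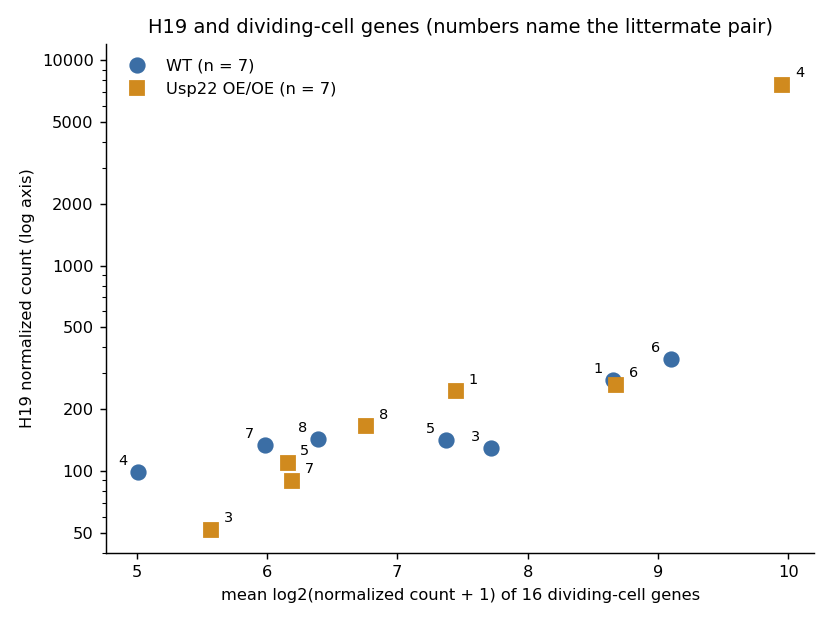
H19 normalized count (log axis) against the mean log2 value of 16 dividing-cell genes in 7 WT mice (circles) and 7 Usp22 OE/OE mice (squares), with the number of the pair beside each point. H19 climbs from 51.8 to 351 with the list over 13 mice, and the OE/OE mouse of pair 4, at 9.95 and 7613, lies far above them.

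The other members were compared with the same 13 marker lists, also after the values had been seen. Over the litter differences, 34 of 130 relations had an exact p of 0.05 or less and 5 an adjusted p below 0.05. For Igf2, Dlk1 and Grb10 such relations were common: 26.1% of all single genes of the table reached an exact p of 0.05 or less with Igf2. The share was 29.3% with Dlk1 and 28.0% with Grb10. These were the highest shares of the set, whose median was 17.95%, with 10.4% for H19 and 1.33% for Peg3. The shares are for single genes and not for list means, so the 34 relations cannot be set against them directly. Igf2 with the hormone-sensing luminal list (8 genes, among them Esr1, Pgr and Prlr) had r = 0.95 (exact permutation p = 0.00139, adjusted p = 0.0451), rho = 0.96 (p = 0.00278) and r = 0.83 without pairs 3 and 4. Without pair 4 it was 0.94 (exact p = 0.00972, adjusted p = 0.264). Dlk1 and Grb10 had r = 0.90 (exact permutation p = 0.000794, adjusted p = 0.0451) and r = 0.90 (p = 0.00179, adjusted p = 0.0464) with that list, with rho = 0.89 and 0.96 and with r = 0.87 and 0.91 without pairs 3 and 4. The hormone-sensing sums were 90537 to 212146 in WT and 67317 to 180302 in OE/OE, lowest in the OE/OE mouse of pair 4.

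Dlk1 followed the pericyte list (8 genes, among them Rgs5 and Pdgfrb) with r = 0.99 (exact permutation p = 0.00139, adjusted p = 0.0451), rho = 0.89 (p = 0.0123), r = 0.86 without pairs 1 and 4, and r = 0.96 without pair 4 (exact p = 0.00972). It also followed the skeletal muscle list (14 genes, with sums of 532 to 2036 in WT and 336 to 1985 in OE/OE), with r = 0.85 (exact permutation p = 0.000794, adjusted p = 0.0451), rho = 0.93 (p = 0.00675) and r = 0.78 without pairs 1 and 5. The r of Dlk1 was higher with the Schwann cell (0.97), endothelial (0.96) and adipocyte (0.91) lists, which missed the adjusted threshold. Igf2 had r of 0.93, 0.90 and 0.89 with the Schwann cell, muscle and pericyte lists. Grb10 had r of 0.95 and 0.93 with the pericyte and Schwann cell lists. The 5 relations were thus not particular to the lists named. Pericyte sums were 16901 to 36037 in WT and 9473 to 37282 in OE/OE, and endothelial sums were 65489 to 97992 and 25197 to 140961, both lowest in the OE/OE mouse of pair 4. No gene of these lists was at 0 in any mouse, and no list of the 13 differed between genotypes by exact sign flips (lowest p = 0.0625, adjusted p = 0.406). None of the 5 relations kept an adjusted p below 0.05 by rho or without pair 4. The part of hormone-sensing cells, pericytes or muscle in the values of Igf2, Dlk1 and Grb10 was not tested.

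Mest, known from fat tissue, followed the adipocyte list (11 genes, among them Adipoq and Plin1) among the OE/OE mice. There r was 0.98 (exact permutation p = 0.000397, adjusted p = 0.0258), rho was 0.96 (p = 0.00278), r was 0.98 without the mice of pairs 4 and 5, and r was 0.99 without pair 4 (exact p = 0.00278, adjusted p = 0.181). With the fibroblast list r was 0.91 in the same mice (exact permutation p = 0.000992, adjusted p = 0.0430), with rho = 0.96 (p = 0.00278) and r = 0.87 without pairs 1 and 4. Neither call held without pair 4 (adjusted p = 0.226 for fibroblasts) or by rho (adjusted p = 0.110 for both). Among WT mice, r with the adipocyte list was 0.30 (exact permutation p = 0.525, adjusted p = 0.862) and r with the fibroblast list was 0.43 (p = 0.355, adjusted p = 0.741). The difference between the genotypes in these relations was not tested. Adipocyte sums were 14208 to 35659 in WT and 10249 to 32308 in OE/OE, lowest in the OE/OE mouse of pair 4, and the part of fat cells in the Mest values was not tested. With H19 and the dividing-cell list, these were the 3 of 130 relations among OE/OE mice with an adjusted p below 0.05, and among WT mice there were 0. At p of 0.05 or less there were 30 among OE/OE mice and 16 among WT mice. The share over all genes was not counted for these mice. The lists were added after the values were seen, and the H19 spread chose the set, so these counts describe the relations and do not test them.

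**Figure D5:**
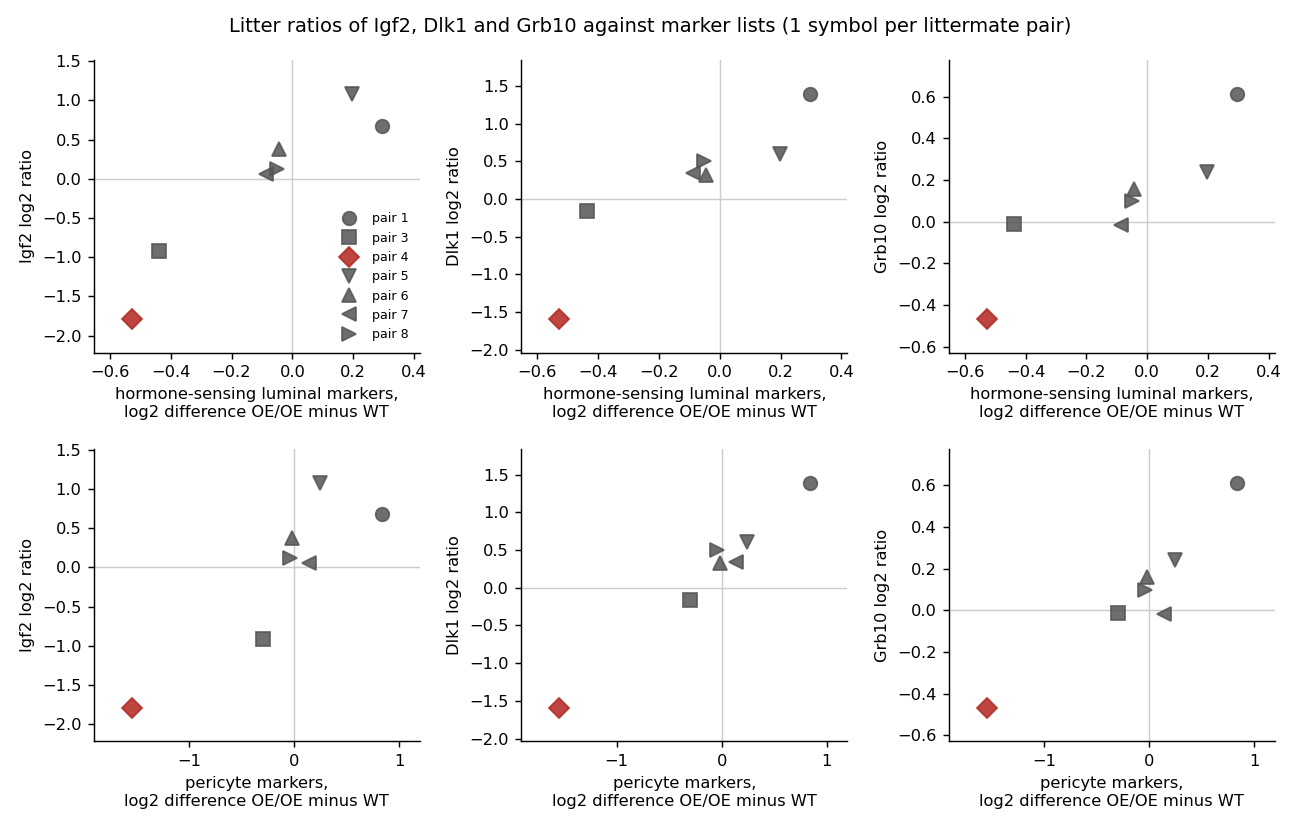
Litter log2 ratios of Igf2, Dlk1 and Grb10 against the litter difference in the hormone-sensing luminal list (top) and the pericyte list (bottom), 1 symbol per pair with pair 4 in red. Pair 4 is lowest on both axes of all 6 panels, and pair 1 has the highest Dlk1 (1.39) and Grb10 (0.61) ratio.

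Of 68 further imprinted genes, 52 were in the table. In the 7-pair fit 2 of the 52 were called, against 3.81% of all genes, both lower in OE/OE, and the median log2 fold change was -0.05. Zdbf2, a paternally expressed regulator of growth, averaged 414 ± 177 normalized counts in the WT mice and 315 ± 134 in their OE/OE littermates (mean ± SD, n = 7 each), with a log2 fold change of -0.42 (limma, SE 0.16, p = 0.0268, adjusted p = 1.00, exact sign flips p = 0.0469) and a higher value in 1 of 7 OE/OE mice. Zim1, a zinc finger gene beside Peg3, was 72.4 ± 37.6 and 48.5 ± 26.2, with a log2 fold change of -0.72 (limma, SE 0.29, p = 0.0318, adjusted p = 1.00, exact sign flips p = 0.0625). Zdbf2 was not called without pair 6 or pair 7, and Zim1 was not called without pair 3, 4 or 6. The study's paired test per gene also called 2 of the 52, but not Zim1. These were Zdbf2, lower, and Gnas, higher and named after its values were seen. Without pair 4, Zdbf2 stayed called (-0.28, adjusted p = 0.584) and Zim1 did not (-0.49, adjusted p = 0.603). In that fit 7 of the 52 were called, against 8.47% of all genes, and the median was 0.00. The 5 higher were Slc22a3 (0.55), Phlda2 (0.34), Inpp5f (0.23), Cobl (0.19) and Ampd3 (0.17), and beside Zdbf2 the other lower one was Nnat (-0.75), all named after their values were seen. The library of the OE/OE mouse of pair 4 held the lowest value of 14 for 23 of the 52 and the highest for 7 (25.3% and 27.04% over all genes).

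Of 21 genes of the IGF axis other than the 10, 17 were in the table and 1 was called, against 3.81% of all genes, with a median log2 fold change of -0.11. Stc1, which inhibits the protease that frees IGFs from binding proteins, averaged 1112 ± 310 normalized counts in the WT mice and 905 ± 367 in their OE/OE littermates (mean ± SD, n = 7 each), with a log2 fold change of -0.39 (limma, SE 0.14, p = 0.0223, adjusted p = 1.00, exact sign flips p = 0.0625). It was not called without pair 5 and remained called without pair 4 (-0.28, adjusted p = 0.579). In that fit 3 of the 17 were called, against 8.47% of all genes, and the others, named after their values were seen, were Irs2, an insulin receptor substrate, which was higher (0.28), and Igfbp2, a binding protein of IGF1 and IGF2, which was lower (-0.71, adjusted p = 0.422). In the OE/OE mouse of pair 4 Igfbp2 was the highest of 14 (1915 normalized counts), and of the 17 genes 9 were at their lowest and 3 at their highest there, against the same shares of all genes.

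The genes whose log2 values tracked H19 most closely over the 14 mice were Lrwd1 (Pearson r = 0.94), Fdxr (0.92), Zfp207 (0.92), Coq3 (0.91) and Mcm7 (0.91). All 5 peaked in the OE/OE mouse of pair 4, and over the other 13 mice their r with H19 fell to 0.53 to 0.71. Over those 13 mice the closest genes were Tmem220 (0.92), Ccnb2 (0.92), which belongs to the dividing-cell list, and Troap (0.91). Closest to Igf2 were Abca8b (0.98), C530008M17Rik (0.97) and Adamtsl1 (0.97), and closest to Dlk1 were Atp2a3 (0.94), Mctp1 (0.93) and Edn2 (0.93). Without the OE/OE mouse of pair 4, Abca8b and Adamtsl1 were still among the 3 closest to Igf2 (0.95 and 0.96), and the same 3 genes were closest to Dlk1 (0.86 to 0.88). Meg3 was closest to Gm47652 (0.96), Gm47331 (0.93) and 2610306O10Rik (0.92), and Peg3 to Dnhd1 (0.94), Srgap2 (0.93) and Gm15675 (0.91). Without that mouse, Gm47652 (0.94) and Dnhd1 (0.93) were still the closest to Meg3 and Peg3, but the other 4 were no longer among the closest 3. These are descriptions over mice that share litters and libraries, with no test.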

How the data were processed

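Poly(A) RNA of MECs from 7 WT and 7 Usp22 OE/OE mice was sequenced with a paired-end protocol. The authors mapped reads to mm10 with TopHat 2.0.10, counted fragments per GENCODE M21 gene with HTSeq 0.6.0, and scaled by DESeq 1.18.0 size factors. Every gene of the table reached 10 fragments in 7 libraries, the minimum of the study. The deposited values are this signal, normalized counts on a linear scale. How fragments shared by overlapping genes were counted is not given in the sources used here. All values were whole multiples (within 0.01) of what 1 fragment is worth, which gave the depth (20125106 to 41835978 fragments). Separate mice were the replicates.

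The main test was limma 3.58.1 (R 4.3.3, lmFit and eBayes with trend) on log2 of the normalized count plus a pseudocount of 1. Littermate pairs entered as a block, since all 7 pairs deviated together (median correlation 0.52, lowest 0.17). Benjamini-Hochberg adjustment ran over 16124 genes. It replaced the study's paired test per gene, and was tested on simulated data. edgeR 4.0.16 and DESeq2 1.42.0 on recovered fragments were alternatives. Litter ratios were tested by exact sign flips (128 patterns) and correlations by exact permutation (5040 pairings). Positions came from GENCODE M21 on GRCm38.

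The text names every member, genes of the further imprinted and IGF axis lists with p of 0.05 or less (at most 5 per list and direction), and by Pearson r the 5 closest genes to H19 and the 3 closest to Igf2, Dlk1, Meg3 and Peg3. Other names are given as chosen after their values were seen. Members and lists were chosen with earlier results of these data known.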

Additional observations from a re-analysis of the deposited data

Results flagged for a closer look

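Of 46 groups of 7 mice (9 genes, 13 marker lists and the library total, each in WT and OE/OE), 3 held a highest or lowest mouse whose gap to its neighbor passed Dixon's critical value, the gap being divided by the range of the 7 mice, and chance alone would give 2.3. H19 was left out, because its range between mice chose the set. Mest in WT mice was flagged by its highest mouse, that of pair 7 (8.49 on the log2 scale, next 8.25, gap 0.574 of the range). The pericyte list in OE/OE mice was flagged by its lowest mouse, that of pair 4 (8.38, next 9.80, gap 0.676). The lymphocyte list in WT mice was flagged by its highest mouse, that of pair 1 (7.65, next 5.75, gap 0.628). What set these mice apart was not tested.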

How the results depend on the processing

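With pseudocounts of 0.1 and 10, a mean of at least 50, no trend, edgeR, DESeq2, median centring, quantile normalization or no replicate block, 0 of the 10 genes was called, and leaving out 1 pair at a time gave 0 to 2 (2 without pair 4). The calls over all genes ran from 381 to 1366 of 16124 with a pair left out (1196 without pair 1, 1366 without pair 4, 381 without pair 6). Without the replicate block the pairing is lost, and 182 of all genes, 0 of the further imprinted and 0 of the IGF axis genes were called. The pairing changed no call among the 10. The further imprinted genes ran from 0 to 7 calls and the IGF axis genes from 0 to 3 with a pair left out, and DESeq2 called 2 of the IGF axis genes. Median centring moved the share of higher calls among all genes from 51.3% to 61.2%.

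Quantile normalization turned the sign of Igf2 (0.058), Peg3 (0.0023) and Plagl1 (-0.024), and median centring that of Peg3 (0.0091), all far from the threshold. With a pair left out the log2 fold changes ran from -0.43 to 0.82 for H19, -0.25 to 0.23 for Igf2, -0.39 to 0.19 for Meg3, -0.074 to 0.082 for Peg3 and -0.042 to 0.19 for Plagl1, and changed sign within each range. The H19 value of 0.52 became 0.13 with edgeR and 0.05 with DESeq2. The H19 range of 147-fold became 6.78-fold without pair 4 and 84.8-fold without pair 3, kept its size without any of the others, and was 153-fold by library total and 152-fold by TMM. Relations with p of 0.05 or less among 45 ran from 2 (without pair 4) to 16 with a pair left out, with 7 without pair 1, 8 without pair 7 and 9 without pair 8, and with quantile normalization 2 of 13 passed adjustment. The cause of these shifts was not tested. The paired test per gene gave a count only. The fold change of H19 had the largest SE of the 10 (0.78), and counts were lowest for Igf2 and Meg3 (15 and 32 fragments in their lowest library).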
